A study of Mus musculus with 4 samples.

Results

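Regions of RNA polymerase II (Pol II) called in all 4 organs of the C57BL/6 mouse, yet lying outside protein-coding genes, are described here across heart, kidney, liver and lung. Called regions of the 4 organ lists were joined wherever they overlapped by at least 1 bp on chromosomes 1 to 19 and X, which gave 152542 linked regions. A linked region became a member when all 4 lists contributed to it, when each joined region was under 10000 bp, and when it lay more than 1 kb from the span of each of 21631 protein-coding genes. There were 896 members. They are called outside-gene regions below. The members were chosen by measured values, namely the calls, the lengths of the called regions and their positions, so their presence in every organ is no finding. The level of a region is given as tags per kb, the sum of the deposited tag counts of an organ's joined regions over the sum of their lengths, on the authors' scale of 10000000 tags per library.

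The organs came from 2 mice and were flash frozen, cross-linked and sheared together in a 96-well plate by PIXUL, a sonication instrument. Chromatin was precipitated with antibody 4H8 against the C-terminal domain of Pol II, and libraries were made by Tn5 tagmentation. The groups differ by organ alone: no treatment or genotype other than the C57BL/6 strain was named, and the age and sex of the mice were not given in the sources used here. There was 1 list per organ (n = 1), so values carry no error between replicates and organs were compared without a test. Whether a list pools both mice was not given either. Intervals printed below are 95% Poisson or Wilson intervals and cover counting error only. Each organ also holds several cell types, so fewer cells of a type and less polymerase per cell cannot be told apart.

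Pol II transcribes protein-coding genes, long non-coding RNA (lncRNA) genes, the hosts of most microRNAs and most spliceosomal small nuclear RNA (snRNA) genes, whereas RNA polymerase III transcribes transfer RNA (tRNA) genes and U6 snRNA genes, and RNA polymerase I the ribosomal RNA repeat. Pol II is also found at enhancers, where it makes short unstable transcripts, and in the stretch beyond the end of an active gene before termination. Places of tandem repeats that are incompletely assembled can gather reads from many genomic copies in any sequencing assay.

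The lists rested on 9880184 to 20058183 tags, fewest in heart and most in liver. The labelled organs carried their own markers: Myh6 and Tnnt2 (heart), Slc34a1, Lrp2 and Pax8 (kidney), Cps1, Apoa1 and Cyp2e1 (liver) and the 4 lung genes Sftpc, Sftpb, Nkx2-1 and Scgb1a1 were covered over 100% of their span in their own list, and Ryr2, Ttn, Umod and Alb over at least 95.9%. Sftpc, a surfactant gene of the lung, was also covered over 74.7% in liver, and Sftpb over 40.1%. Apoa1 was covered over 46.6% in heart, 34.1% in kidney and 35% in lung. Other coverage outside a marker's own organ was at most 21.2% (Sftpb in kidney). The part of such coverage in the results below was not tested.

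Of the 896 members, 52 (5.80%) lay within 1 kb of a small RNA gene and a further 331 (36.9%) within 1 kb of another non-coding gene. A gene is said below to be at a member when it lies within 1 kb of the joined span, so the region of a given organ need not overlap the gene. The others had no annotated gene, and 2 of them were set apart by their high level, leaving 511. The sequences that identify the best-known small RNAs and promoters among the members are given first. The microRNA genes of 5 members were matched by name to RefSeq (GRCm38.p6). The mature sequences of the miR-17-92 cluster (chromosome 14) and of the cluster of miR-322 and miR-503 (chromosome X) are shown, since these are the clusters with more than 1 microRNA gene within 1 kb of a member. Capitals mark the seed, bases 2 to 8, which pairs with target messages, and letters run from 5′ to 3′.
mmu-miR-17-5p: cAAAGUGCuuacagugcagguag
mmu-miR-20a-5p: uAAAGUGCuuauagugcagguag
mmu-miR-18a-5p: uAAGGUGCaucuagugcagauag
mmu-miR-19a-3p: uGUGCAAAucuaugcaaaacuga
mmu-miR-19b-3p: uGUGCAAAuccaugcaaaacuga
mmu-miR-92a-3p: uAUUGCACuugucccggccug
mmu-miR-322-5p: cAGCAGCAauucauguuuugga
mmu-miR-503-5p: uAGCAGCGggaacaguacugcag
miR-17-5p and miR-20a-5p share the seed AAAGUGC, and miR-19a-3p and miR-19b-3p share GUGCAAA. The seeds of miR-322-5p (AGCAGCA) and miR-503-5p (AGCAGCG) are alike at their start.

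Promoters are shown for 3 lncRNA genes on the list of known lncRNAs, Snhg5, Dancr and Snhg15, and for 4930471M09Rik, which faces 1810044D09Rik from the opposite strand and was chosen after its values were seen. Regions of all 4 lists overlapped each of these windows. Each window runs from 250 bases before to 50 bases after the RefSeq start (GRCm38.p6), and is written on the strand of the gene. Capitals mark matches, on either strand, to the GC box GGGCGG, to CCAAT, to TATAAA or to the cAMP response element TGACGTCA.
Snhg5 (chr9:88522848-88523147, minus strand): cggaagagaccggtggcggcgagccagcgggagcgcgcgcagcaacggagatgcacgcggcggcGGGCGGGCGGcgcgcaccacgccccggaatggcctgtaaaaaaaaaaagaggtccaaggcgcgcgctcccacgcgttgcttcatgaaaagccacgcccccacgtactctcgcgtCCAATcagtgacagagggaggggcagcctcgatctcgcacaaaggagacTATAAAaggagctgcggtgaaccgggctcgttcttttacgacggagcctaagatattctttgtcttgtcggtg
Dancr (chr5:74092810-74093109, plus strand): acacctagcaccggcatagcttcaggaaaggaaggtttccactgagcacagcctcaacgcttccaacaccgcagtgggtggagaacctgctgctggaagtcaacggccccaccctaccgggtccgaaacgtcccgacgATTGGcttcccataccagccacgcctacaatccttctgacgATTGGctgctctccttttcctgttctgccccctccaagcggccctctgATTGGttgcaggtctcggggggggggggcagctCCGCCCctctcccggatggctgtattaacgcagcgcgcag
Snhg15 (chr11:6528711-6529010, minus strand): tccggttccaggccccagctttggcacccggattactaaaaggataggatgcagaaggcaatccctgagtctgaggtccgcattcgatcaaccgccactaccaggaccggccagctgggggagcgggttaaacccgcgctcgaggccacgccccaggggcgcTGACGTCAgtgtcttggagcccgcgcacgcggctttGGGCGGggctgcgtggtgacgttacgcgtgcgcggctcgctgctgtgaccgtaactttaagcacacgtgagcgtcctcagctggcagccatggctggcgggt
4930471M09Rik (chr6:91440805-91441104, minus strand): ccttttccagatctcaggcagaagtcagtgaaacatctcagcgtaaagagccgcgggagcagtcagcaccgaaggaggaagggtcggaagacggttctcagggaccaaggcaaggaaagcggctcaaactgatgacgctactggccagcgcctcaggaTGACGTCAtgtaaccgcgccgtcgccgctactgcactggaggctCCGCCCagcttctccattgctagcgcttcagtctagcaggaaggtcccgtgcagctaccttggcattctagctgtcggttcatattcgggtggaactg
The Snhg5 window held 36 CpG dinucleotides and a TATAAA match close to the start. Snhg15 held 29, Dancr 18 with CCAAT matches on the reverse strand, and 4930471M09Rik 20. TGACGTCA was present in the Snhg15 window and in the stretch shared by 4930471M09Rik and 1810044D09Rik. Other genes on the list had windows that are not shown, so those printed do not stand for the list. The Mir99ahg window, also overlapped by regions of all 4 lists, held 8 CpG dinucleotides and no match to these motifs. The Dubr window, overlapped by regions of 3 lists, held 19 and a match to GGGCGG.

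There were 307 lncRNA genes at members. The promoter windows read here were 133, of 121 genes in 111 members, and a called region of at least 1 list overlapped each of them. No such overlap was asked of the windows they are set against below. The part of this limit in the differences was not tested. Regions of all 4 lists overlapped 56 of them, those of 3 lists 30, of 2 lists 28 and of 1 list 19. At least 10 CpG dinucleotides were present in 34.6% of these windows, against 19.1% of all 11575 lncRNA windows and 43.5% of all 32851 promoter windows. GGGCGG was found in 23.3% (16.3% of lncRNA windows, 35.7% of all windows). CCGGAAG, the core bound by ETS factors, was found in 9.02% (3.90% and 8.86%). TGACGTCA was found in 2.26%, or 3 windows (0.976% and 1.79%). TATAAA was found in 10.5% (15.5% and 13.6%), CCAAT in 35.3% (35.9% and 37.4%), the octamer ATGCAAAT in 2.26% (1.87% and 1.74%) and TCACCNTNA in 3.76% (3.54% and 3.20%). Both strands were searched, matches may overlap one another, and windows can share sequence. This holds for a gene with several starts and for facing genes such as 4930471M09Rik and 1810044D09Rik, which share a stretch with TGACGTCA.

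The typical member lay close to the calling threshold. The median level was 22.2 tags per kb in heart, higher than the 17.8 of kidney, the 15.9 of liver and the 18.4 of lung. The calling threshold stated in the headers corresponds to 18.2, 14.5, 13.96 and 16.5 tags per kb, so the median member lay 1.22, 1.23, 1.14 and 1.11 times above it. Some members lay below it, with lowest levels of 12.9, 9.87, 11.6 and 13.2, so this threshold is no floor for the level. A median member rested on 37.4 scaled tags in heart (interval 26.3 to 51.6), 34.7 in kidney (26.3 to 44.9), 32.9 in liver (25.4 to 41.8) and 37.6 in lung (27.9 to 49.6). The higher level in heart thus stood beside the lowest depth and the highest threshold per kb. The part of depth in that difference was not tested. Compact regions that overlap a protein-coding gene and were held by all 4 lists (n = 6510) had medians of 21.7, 18.1, 16.2 and 18.2 tags per kb in the same order, and single-organ regions outside genes 20.2, 16.9, 14.96 and 17.3. The lower limit of calling applies to all 3 sets.

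**Figure D1:**
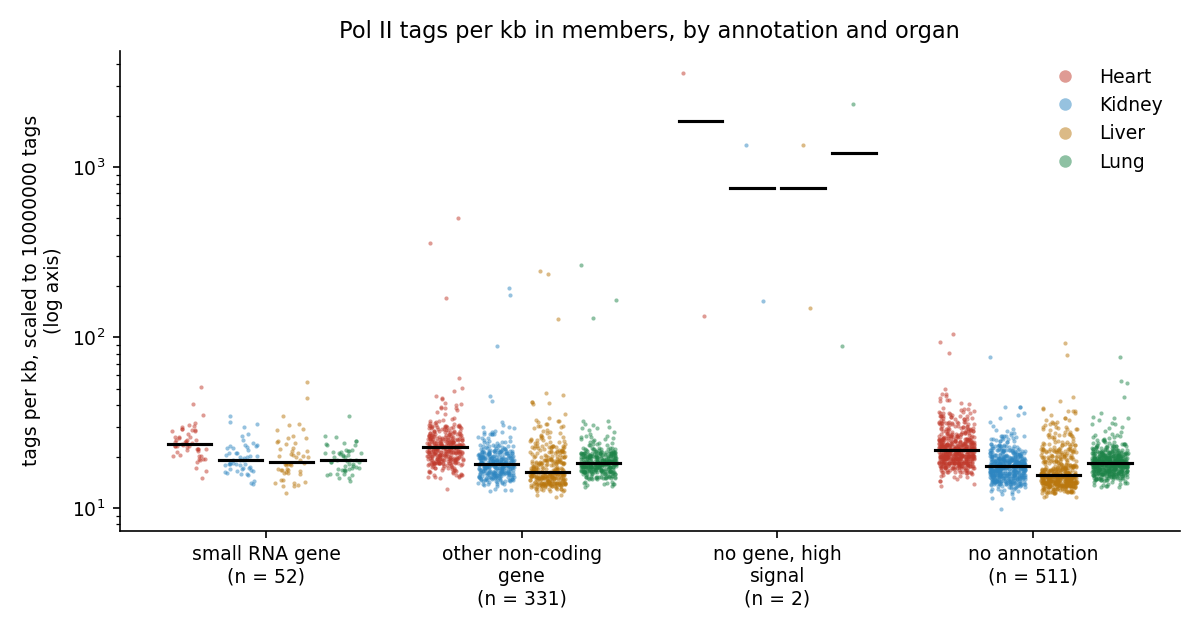
Level of Pol II (tags per kb, scaled to 10000000 tags, log axis) of each of the 896 outside-gene regions by annotation and organ, with points for members and black lines for medians. Small RNA genes (n = 52), other non-coding genes (n = 331) and unannotated members (n = 511) have medians between 15.5 and 23.8, while the 2 high-signal members without a gene lie between 89.2 and 3581.

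Levels of a member differed little between the 4 organs. They were measured only inside called regions, which every list had to hold, so a narrow range is partly set by the rule. Organs could differ in covered length instead. At 1 member of Mir99ahg, 500 bp in heart and 8733 bp in kidney carried 19.2 and 22.8 tags per kb. The ratio of the highest to the lowest organ had a median of 1.54 (1.04 to 3.17), was below 1.5 in 397 members and below 2 in 798. Heart had the highest level in 563 members, lung in 114, liver in 111 and kidney in 108. Divided by the median of all regions under 10000 bp of its list (20.7, 17.1, 14.96 and 17.5 tags per kb for heart, kidney, liver and lung), liver was highest in 300, heart in 250, lung in 177 and kidney in 169. The order of organs therefore changed with the scaling. Across the 896 members, Spearman's rho between organs was 0.11 to 0.25 for the level and 0.22 to 0.46 for the covered length. The members share the lower limit of calling and the genome, and these coefficients describe this set only.

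Joining by any overlap did not require a base common to all organs. A member spanned 4449 bp at the median (534 to 20149 bp), while the stretch inside called regions of all 4 lists had a median of 308.5 bp (0 to 7311 bp). No base was shared by all 4 lists in 323 members (36.0%), which are chains of neighbouring regions. A further 227 shared under 500 bp, 178 shared at least 500 but under 1000 bp, 100 shared at least 1000 but under 2000 bp, and 68 shared 2000 bp or more. In 315 members each list contributed a single region, and 1 member joined as many as 17 regions. The shared stretch had a median of 686.5 bp at small RNA genes, 417 bp at other non-coding genes and 166 bp at unannotated members.

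**Figure D2:**
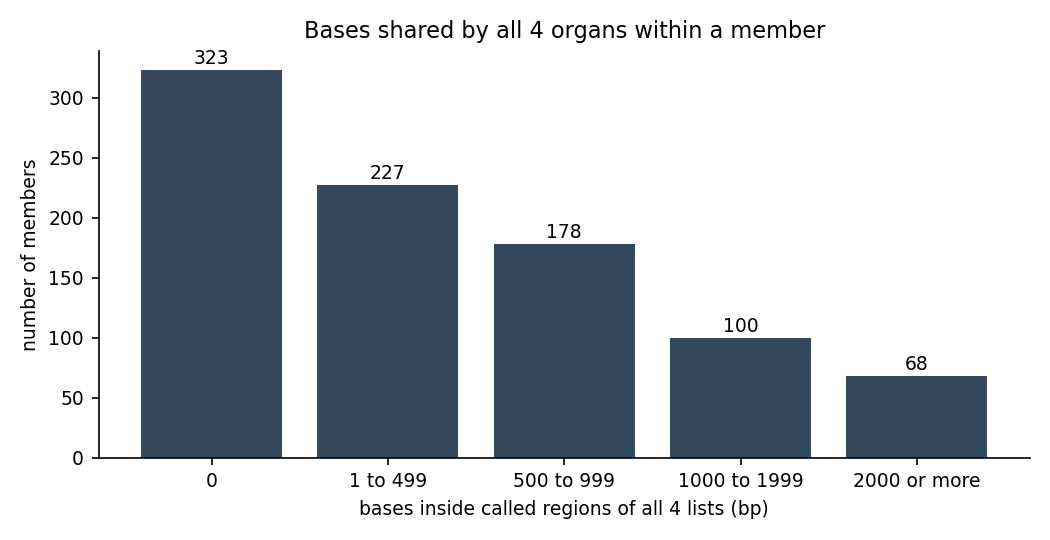
Number of outside-gene regions (vertical axis) by the bases inside called regions of all 4 lists (horizontal axis, bp). A common base is missing in 323 of 896 members, and 68 share 2000 bp or more.

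Among small RNA genes, tRNA genes made up most of the count. There were 30 members with 63 tRNA genes, 12 with 13 distinct snRNA genes, 5 with 6 small nucleolar RNA (snoRNA) genes, which guide RNA modification, and 5 with 12 microRNA genes. The tRNA members lay between 12.3 tags per kb (lowest, liver) and 35.0 (highest, heart), with a median of 24.2 in heart, while the medians of kidney, liver and lung were 19.2, 19.97 and 20.2. All 4 lists shared a base in 25 of the 30. Genes were counted per Mb of region, widened by 1 kb on each side, and a gene at several regions was counted again for each. For tRNA genes this density was 9.82 in members, 0.399 in compact gene regions held by all 4 lists and 0.275 in single-organ regions outside genes. For snRNA genes the 3 densities were 2.18, 0.646 and 0.427, for snoRNA genes 0.935, 1.31 and 0.475, for microRNA genes 1.87, 1.78 and 0.427, and for lncRNA genes 54.5, 16.1 and 79.2. By this count members had the highest of the 3 values for tRNA, snRNA and microRNA genes but not for snoRNA and lncRNA genes. The share of regions with at least 1 gene of a type ranked members differently for lncRNA and microRNA genes, but not for the other types. For lncRNA genes it was 35.4% in members, 12.5% in compact gene regions and 21.9% in single-organ regions. For microRNA genes it was 0.558%, 1.37% and 0.106%. Members span more than single-organ regions, and none of these differences was tested.

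tRNA clusters were the longest stretches of common signal. The member on chromosome 13 (21158019 to 21174264, near Trim27) had 9 tRNA genes, for glutamate, phenylalanine, methionine, lysine, leucine and glutamine by their names, and 7149 bp shared by all lists. Its level was 23.7 tags per kb in heart and 23.3 in kidney, and slightly lower in liver (19.8) and lung (20.9). The member on chromosome 19 (12004110 to 12013747, near Osbp) had 7 tRNA genes and had the largest shared stretch of all members, 7311 bp. Its level was 28.5 in heart (25.1 to 32.3), 20.2 in kidney (17.9 to 22.7), 31.0 in liver (28.4 to 33.7) and 21.8 in lung (19.2 to 24.7), so the intervals of heart and liver lay above those of kidney and lung. The member on chromosome 14 (51062606 to 51066633) with n-TLaag8, n-TPagg4 and n-TTtgt3 had the highest mean level of the tRNA members. Its 29.0 tags per kb in heart (23.9 to 35.0), 31.2 in kidney (26.5 to 36.5), 28.9 in liver (24.96 to 33.2) and 26.0 in lung (21.9 to 30.7) overlapped within their intervals. On chromosome 3 (19627063 to 19630066), n-TRacg3, n-TYgta1, n-TYgta2 and n-TAagc14 carried 29.8, 27.2, 25.8 and 24.5 tags per kb in the same order of organs. On chromosome 2 (122373588 to 122383296), 3 histidine tRNA genes carried 30.4, 26.5, 21.6 and 21.6, and on chromosome 7 (98814159 to 98818026) 2 proline tRNA genes carried 35.0, 19.2, 26.5 and 23.7.

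The highest levels among small RNA members lay at snRNA genes. On chromosome 3 (96487032 to 96490233), at Gm25890 and Gm22614, the level was 51.4 tags per kb in heart (43.5 to 60.4), 29.8 in kidney (24.9 to 35.5), 55.1 in liver (48.7 to 62.1) and 34.5 in lung (28.4 to 41.6). Heart and liver lay above kidney and lung, with no overlap of intervals. A neighbouring member at Gm25890 (96484321 to 96485886) carried 25.8, 21.0, 14.6 and 19.9. On chromosome 12 (52601950 to 52606425), at LOC115488100 and Gm23296, the level was 40.6 in heart (34.1 to 47.9), 34.7 in kidney (30.5 to 39.3), 44.0 in liver (39.2 to 49.3) and 23.2 in lung (19.3 to 27.7), lowest in lung. Gm26091, on chromosome 3 (104595223 to 104604581) near the lactate transporter gene Slc16a1, carried 31.6, 19.96, 34.5 and 19.1. snRNA genes are present in near-identical copies, and how tags matching several places were counted was not stated in any source used here, so the assignment among copies is uncertain.

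The classical small RNA genes were not members. Of 32 listed, which include the U1, U2, U3, U5, U7, U11 and U12 genes, Rn7sk, Rmrp, Rpph1 and the Y RNA genes, 12 had a linked region over the length limit, 7 had a linked region within 1 kb of a protein-coding gene, 2 had linked regions of fewer than 4 lists and 7 had no region, and 4 symbols were not matched. Rn7sk, the regulator of the elongation factor P-TEFb, lay at a linked region of all 4 lists, in which the longest called region measured 28545 bp. Terc, the telomerase RNA, lay at linked regions of liver and lung only.

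The members were a minority of small RNA genes, and gene types differed in how often all lists held them. Counting each annotated gene more than 1 kb from a protein-coding gene and any region within 1 kb, whatever its length, 134 of 332 tRNA genes (40.4%) had a region in all 4 lists and 156 had none. The same held for 37 of 626 snRNA genes (5.91%), 39 of 859 snoRNA genes (4.54%), 46 of 366 microRNA genes (12.6%), 726 of 7293 lncRNA genes (9.95%) and 106 of 7573 pseudogenes (1.40%). Of genes with a region in any list, all 4 held 76.1% of 176 tRNA genes, 20.7% of 3499 lncRNA genes and 10.05% of 1055 pseudogenes. Neighbouring tRNA genes share regions, so these genes are not independent of each other.

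**Figure D3:**
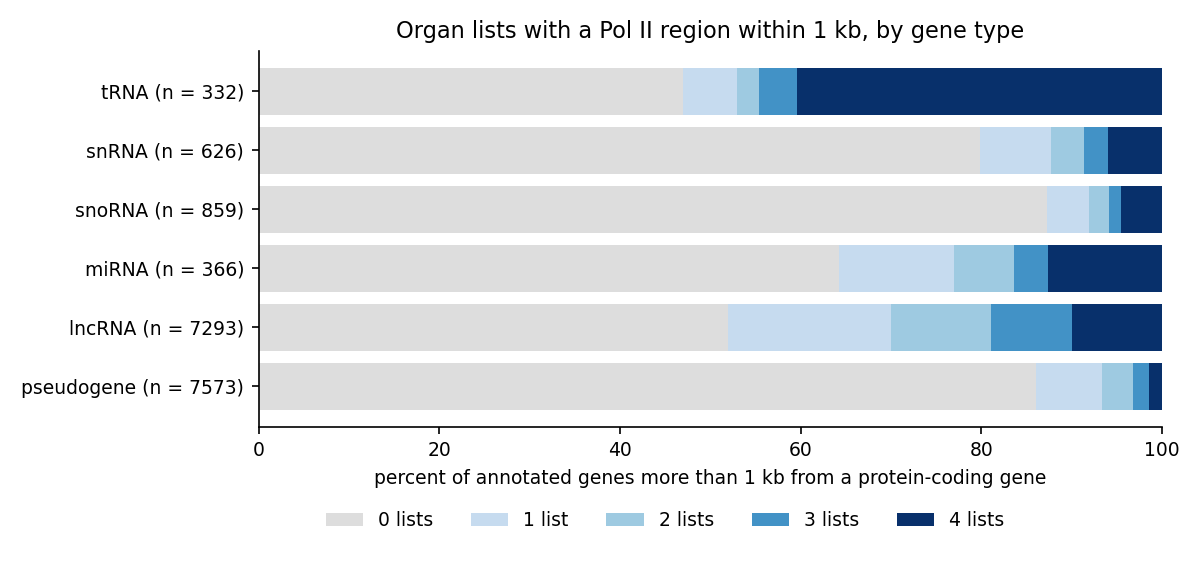
Share of annotated non-coding genes (percent, horizontal axis) more than 1 kb from a protein-coding gene that have a Pol II region within 1 kb in 0 to 4 organ lists, by gene type. All 4 lists held 40.4% of tRNA genes, 12.6% of microRNA genes and 9.95% of lncRNA genes.

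At microRNA genes the levels were low. The member on chromosome 14 (115039968 to 115043429) ended before Mir17, the first gene of the miR-17-92 cluster, which is known for its role in cell proliferation, and lay within 1 kb of the cluster. It carried 22.2 tags per kb in heart (11.1 to 39.8), 16.7 in kidney (12.6 to 21.8), 13.4 in liver (10.6 to 16.6) and 15.6 in lung (9.97 to 23.4), with overlapping intervals and no base common to all lists. The member on chromosome X (53053739 to 53059303) lay at Mir322, Mir503 and Mir351 and their host C430049B03Rik. It carried 21.2, 16.5, 14.2 and 14.9, with 1094 bp in common. Members at Mir6349, Mir3965 and Gm51284 lay between 13.9 and 23.2 tags per kb.

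Among the other non-coding members, 293 had at least 1 lncRNA gene within 1 kb and 38 only pseudogenes. Without the widening by 1 kb, 297 members overlapped another non-coding gene. Over all 331 other non-coding members, the median level was highest in heart, at 22.7 tags per kb, followed by lung (18.5), kidney (18.1) and liver (16.3). Of 52 listed lncRNA genes, 11 were members, 20 had a linked region over the length limit, among them Malat1 and Neat1, 7 had linked regions of fewer than 4 lists, 4 had a linked region within 1 kb of a protein-coding gene, 4 were not matched and 6 had no region. The 6 were the imprinted genes Meg3, Rian, Mirg and H19, and Mir155hg and Miat. Having no called region does not show that polymerase was missing. Some genes with members also lay at another linked region over the length limit. These were Mir99ahg, Tug1, Pvt1, Dleu2, Ftx and Trp53cor1, with longest called regions of 13268 bp (Pvt1) to 25003 bp (Trp53cor1). Levels given below for these genes are those of the members alone, not of the whole genes.

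The snoRNA host genes Snhg5 and Snhg15 and the lncRNA gene Dancr, whose promoters are printed above, had Pol II over the gene in every list. At Snhg5 (chromosome 9, 88520908 to 88524306) the level was 24.7 tags per kb in heart (19.2 to 31.2), 16.8 in kidney (12.5 to 22.2), 30.5 in liver (25.1 to 36.7) and 20.5 in lung (16.2 to 25.6), and the interval of liver lay above that of kidney. At Snhg15 (chromosome 11, 6522000 to 6529417) the 4 levels were 21.5, 18.2, 18.4 and 18.6. At Dancr (chromosome 5, 74088641 to 74099956), with the snoRNA gene Snora26 within 1 kb, they were 24.9 in heart (21.1 to 29.1), 22.8 in kidney (20.4 to 25.4), 20.2 in liver (17.8 to 22.7) and 16.9 in lung (14.3 to 19.8). Snhg15 was even across organs within counting error, and Dancr was lowest in lung, whose interval overlapped that of liver alone. The divergent pair 4930471M09Rik and 1810044D09Rik (chromosome 6, 91439845 to 91442475) carried 16.7, 19.5, 27.7 and 18.9.

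Members also lay along longer lncRNA genes, and the levels are those of the members alone. Mir99ahg, host of miR-99a and let-7c, had 4 members. Its first, on chromosome 16 (77328476 to 77334124), carried 32.0 tags per kb in heart (26.4 to 38.3), 28.0 in kidney (24.7 to 31.6), 32.8 in liver (29.1 to 36.9) and 18.7 in lung (15.1 to 22.8), lowest in lung. Ftx, a gene of the X-inactivation centre, carried 25.1, 27.1, 30.1 and 20.5 on chromosome X (103615228 to 103624807), with 4903 bp in common. Dleu2, host of miR-15a and miR-16-1, had 4 members on chromosome 14 between 12.8 and 23.5 tags per kb, of which 2 had no common base.

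Pvt1, the neighbour of Myc, carried 26.3 tags per kb in heart (19.0046 to 35.5), 13.9 in kidney (7.04 to 24.5), 19.9 in liver (16.0 to 24.4) and 15.0 in lung (9.45 to 22.6) at chromosome 15, 62078720 to 62081029, with overlapping intervals. Trp53cor1 (lincRNA-p21), beside the cell-cycle inhibitor gene Cdkn1a, carried 24.5, 16.5, 20.1 and 17.7 on chromosome 17 (29075020 to 29082413). In that member the kidney region lay beside Trp53cor1 and did not overlap it. The member at the edge of Dubr on chromosome 16 (50731841 to 50737419) carried 16.8, 17.98, 14.9 and 15.9, and its heart region did not overlap Dubr. The member at the edge of Tug1 on chromosome 11 (3636808 to 3639915) was the most even of the 896, with 17.2, 16.95, 16.9 and 16.5. It had no common base, and its heart and lung regions, which did not overlap Tug1, were 500 bp windows with 8.60 and 8.27 tags, levels that lie near the lower limit of calling.

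The highest mean levels over the organs among lncRNA members, below the high-signal ones, were at Gm40034 on chromosome 2 (181917161 to 181918030), with 50.6 tags per kb (heart), 42.6 (kidney), 29.9 (liver) and 25.8 (lung), and at Gm46595 on chromosome 17 (70963403 to 70964158), with 43.6, 45.2, 30.1 and 27.8. Gm38883 and Gm38882 on chromosome 6 carried 38.3, 27.3, 47.0 and 30.5, and Gm52681 on chromosome 4 carried 40.7, 24.9, 45.7 and 25.9. Gm41907 on chromosome 1 (86468260 to 86475969) carried 57.5 in heart (51.9 to 63.4) against 24.8, 22.9 and 31.2, highest in heart and above Gm40034 there and in lung. Chosen after its values were seen, Gm35413 near Klf6, a zinc-finger factor gene, carried 38.5, 28.3, 31.0 and 28.6. These lncRNAs have no function stated here.

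A level of at least 5 times the list median in all 4 lists, the rule for high signal, was met by 5 members, of 5 (0.0668%) among all 7481 compact linked regions held by all 4 lists. The rule used the level, so these values are a description. The highest member lay on chromosome 2 (98666274 to 98667465), without a gene and 1034602 bp from Lrrc4c, its nearest protein-coding gene and the largest distance of any member. It carried 3581 tags per kb in heart (3474 to 3691), 1344 in kidney (1291 to 1397), 1349 in liver (1302 to 1396) and 2339 in lung (2264 to 2416), which is 78.5 to 173 times the list medians. At 3.58 scaled tags per bp in heart it exceeded the limit of 1 tag per bp that the headers state. Its clonal fold change, a deposited measure of how far tags pile up on the same positions, was 1.52 to 1.60.

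At Gm33838 on chromosome 9 (35304986 to 35305792) the level was 504 tags per kb in heart (450 to 564), 178 in kidney (154 to 206), 237 in liver (208 to 269) and 267 in lung (237 to 300), with clonal fold changes of 1.61 to 1.79. At the annotated 18S ribosomal RNA-related sequence Rn18s-rs5 and AY036118 on chromosome 17 (39843066 to 39848950) it was 357 in heart (341 to 372), 194 in kidney (185 to 203), 246 in liver (237 to 255) and 166 in lung (157 to 176). There the clonal fold change was 0.99 to 1.12 and the common stretch 5761 bp. Gm36876 on chromosome 11 (109011431 to 109012222) carried 170, 89.2, 128 and 130. The second member without a gene, on chromosome 15 (75085308 to 75087325) near Ly6c2, carried 133, 164, 150 and 89.2. In 4 of these 5 heart was highest; on chromosome 15 kidney was. Whether tags from other copies of these sequences contribute was not tested.

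**Figure D4:**
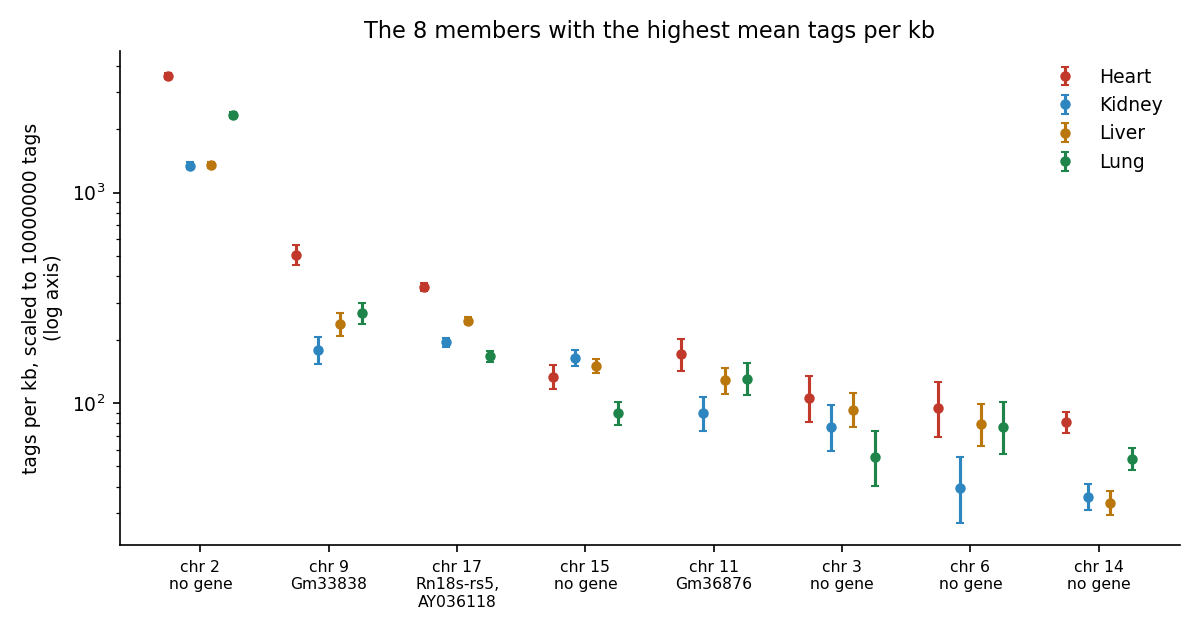
Level of Pol II (tags per kb, scaled to 10000000 tags, log axis) in heart, kidney, liver and lung for the 8 outside-gene regions with the highest mean level, labelled by chromosome and gene. Points are single libraries and bars are 95% Poisson intervals, and the chromosome 2 region lies above 1343 in every organ.

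Just below the rule lay an unannotated member on chromosome 3 (5860326 to 5860965) with 105, 76.6, 92.8 and 55.2 tags per kb, 3.16 times the list median in lung. Next came members on chromosome 6 (3201198 to 3201744) with 94.2, 39.2, 79.2 and 76.8 and on chromosome 14 (19415691 to 19419506) with 80.8, 35.8, 33.5 and 54.2. The 5 high-signal members held 10.8% of all tags of the 896 members in heart (Wilson interval 10.5 to 11.0), 6.07% in kidney (5.91 to 6.23), 6.39% in liver (6.25 to 6.53) and 7.93% in lung (7.73 to 8.13). A further 6 members, all without annotation, lay side by side at the start of chromosome 9 (3000085 to 3025859), 309371 to 332266 bp from Alkbh8. The first of them carried 49.6 tags per kb in heart (41.7 to 58.5), 19.9 in kidney (16.0 to 24.5), 23.6 in liver (19.7 to 28.2) and 44.7 in lung (37.9 to 52.3), with heart and lung above kidney and liver. They were chosen for mention after their values were seen.

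Members without annotation made up 511 of the 896 (57.0%). The median level by organ had the same order, 21.8 tags per kb for heart, 18.2 for lung, 17.5 for kidney and 15.5 for liver. Their median distance to the nearest protein-coding gene was 13819 bp, against 20904 bp for other non-coding members and 10832 bp for small RNA members. By the level, the next members were on chromosome 13 (3372899 to 3373654) with 32.0, 38.9, 42.3 and 29.4 and on chromosome 1 (195241320 to 195242105) with 33.4, 33.8, 38.1 and 30.0, both within overlapping intervals. A member on chromosome 18 (3004574 to 3006295) carried 37.6, 34.9, 30.9 and 27.9, also within overlapping intervals. Another, on chromosome 1 (181252140 to 181260756), carried 33.6 in heart (29.5 to 38.1), 19.1 in kidney (16.2 to 22.3), 44.5 in liver (41.3 to 47.9) and 23.1 in lung (18.9 to 27.9), highest in liver.

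The distance of members to the nearest protein-coding gene had a median of 15767 bp. Of the 896, 21.4% lay 1 to 5 kb away, 35.7% lay 5 to 20 kb, 33.1% lay 20 to 100 kb and 9.71% lay over 100 kb away. The shares of the 35968 single-organ regions outside genes were 17.8%, 30.9%, 33.7% and 17.6%. Members are joined from several regions and therefore wider, with a median span of 4449 bp against a median of 500 bp in heart, kidney and lung and 687 bp in liver for single-organ regions, which shortens distances. No test was made of the difference.

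**Figure D5:**
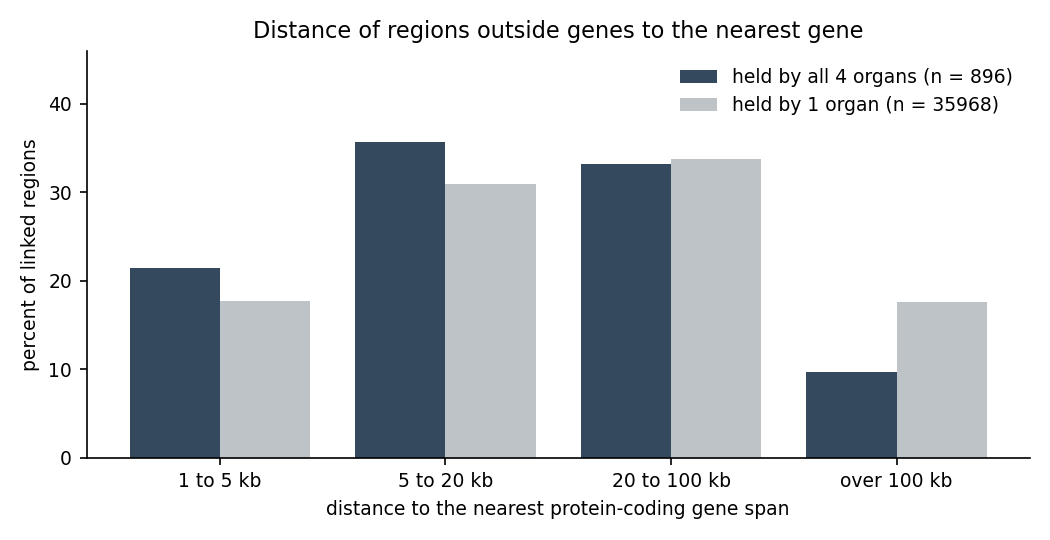
Percent of linked regions outside genes (vertical axis) by distance to the nearest protein-coding gene span (horizontal axis), for regions held by all 4 organs and for regions held by 1 organ. The share over 100 kb away is 9.71% for the 896 members and 17.6% for the 35968 single-organ regions.

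For 181 members (20.2%) the nearest protein-coding gene was itself covered by Pol II in every list. A gene counted as covered in a list where regions overlapped at least 50% of its span. Of the 720 distinct nearest genes, 128 (17.8%) were covered in all 4 lists and 44.6% in none. Among the 8659 nearest genes of single-organ regions these shares were 4.67% and 65.5%, and among all 21631 protein-coding genes 8.13% and 66.5%. A single member was nearest to 601 of the 720 genes.

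Genes with at least 4 members beside them, a limit set after the values were seen, numbered 15. Mkln1 had 9 members on chromosome 6 (31237491 to 31378323), all at the antisense gene Mkln1os and neighbouring lncRNA genes, and was itself covered over 47.9% (lung) to 87.6% (liver) of its span. The strongest of them by common stretch (31366766 to 31376003) carried 28.4, 22.0, 14.9 and 20.2 tags per kb. Hes1, a target of Notch signalling, and Zfp36l2, which encodes an RNA-binding protein that promotes decay of messages, had 4 members each and were covered over 100% in every list. The members beside Hes1 had mean levels of 16.9 to 20.7 tags per kb and those beside Zfp36l2 17.6 to 23.2. Pik3r1, a regulatory subunit of phosphoinositide 3-kinase, had 4 members and was covered over 57.3% (lung) to 98.6% (heart). Ptp4a2, a phosphatase gene, had 5 and was covered over 58.2% (kidney) to 77.7% (heart). Hes1, Zfp36l2, Pik3r1 and Ptp4a2 were the only ones of the 15 covered over at least 50% in all lists. Ankrd55, second with 7 members, was covered over 10.7% (heart) to 34.8% (liver), Alkbh8 with 6 over 0% to 2.68%, and Dcaf5 with 4 over 16.5% to 36.5%. Cryaa, a lens crystallin gene, and Gm46353 had 4 members each and were not covered in any list, and Usp25 with 4 members at Mir99ahg was covered over 5.63% to 8.95%. Nearness does not show which gene a region belongs to.

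Differences between organs of at least 2-fold in the level inside called regions were few, and the rule that every list calls a member limits them. In heart, 36 members (4.02%) lay at least 2-fold above the median of the other 3 organs, against 1.54% of the 7481 compact linked regions held by all lists. In kidney it was 1 member (0.112%, background 0.0535%), in liver 3 (0.335%, background 0.174%) and in lung 2 (0.223%, background 0.0267%, both of its 2 calls being members). Levels divided by the list median gave 3 members for heart (0.335%, against 0.0936% of the 7481), 1 for kidney (0.112% against 0.0802%), 18 for liver (2.01% against 1.08%) and 1 for lung (0.112% against 0.0134%). The 36 heart members comprised 20 without annotation, 15 at other non-coding genes and the high-signal member on chromosome 2, with none at a small RNA gene. Of all members, 57.0% were without annotation, 36.9% lay at other non-coding genes and only 5.80% at small RNA genes. With so small a share, the absence of small RNA genes among 36 members is no finding about them. Whether the 36 depart from these shares was not tested.

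The heart ratios were led by the last member of the chromosome 9 start (3025325 to 3025859), with 46.6 tags per kb in heart (29.5 to 69.9), 17.5 in kidney (9.67 to 29.1), 15.5 in liver (8.75 to 25.3) and 27.0 in lung (16.0 to 42.7), a ratio of 2.67. It rested on few tags, and the intervals of heart and lung overlapped. The high-signal member on chromosome 2 followed with 2.66. An unannotated member on chromosome 7 (67456965 to 67465668), 47741 bp from Lrrc28, carried 36.2 in heart (32.3 to 40.5) against 14.0 in kidney (10.5 to 18.3), 13.0 in liver (6.90 to 22.2) and 20.1 in lung (17.1 to 23.3). There the heart interval lay above all others, a ratio of 2.59.

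In kidney the highest ratio, 2.54, was on chromosome 3 (51183699 to 51187624), 36822 bp from Noct, a circadian phosphatase gene. Its levels were 25.2 tags per kb in heart (19.6 to 31.9), 39.3 in kidney (33.8 to 45.5), 15.5 in liver (11.3 to 20.6) and 15.0 in lung (7.21 to 27.7), so kidney lay above the others. A member at a snoRNA gene near Cd27 on chromosome 6 (125253845 to 125259487) and one at Gm34403 near Zfp217 on chromosome 2 (170172581 to 170176385) came next, with 31.9 and 32.0 in kidney and ratios of 1.90 each.

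In liver, AU019990 on chromosome 2 (132635464 to 132644666) led with 33.8 in heart (29.5 to 38.6), 16.0 in kidney (9.48 to 25.4), 41.9 in liver (39.0 to 44.9) and 15.8 in lung (10.7 to 22.5). Its ratio was 2.61, and the liver region was 9202 bp long against 674 bp in kidney. Gm14164 (chromosome 2, 152356394 to 152366675) carried 24.6, 15.3, 41.2 and 17.4, and Gm5735 (chromosome 7, 101058304 to 101069466) 19.04, 21.4, 40.5 and 18.1, with liver above the rest in both.

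In lung, an unannotated member on chromosome 11 (120743810 to 120752130) carried 21.8 in heart (17.8 to 26.5), 14.0 in kidney (9.66 to 19.7), 13.6 in liver (10.4 to 17.6) and 34.0 in lung (30.6 to 37.6), a ratio of 2.42. The second lung member lay near Top1, the topoisomerase I gene, on chromosome 2 (160616832 to 160623223), with 27.0, 12.6, 13.0 and 27.2. Heart and lung were alike there, and kidney and liver lower. The third, near Plxnc1 on chromosome 10 (94989259 to 94994215), carried 29.9, 17.6, 14.9 and 33.6.

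At the length limit, the longest regions of the members just inside measured 9967, 9976 and 9997 bp and those just outside 10025, 10031 and 10076 bp. A further 305 linked regions held by all 4 lists outside genes exceeded the limit. At the distance limit, the members just inside lay 1006, 1027 and 1027 bp from Ociad1, Zfp53 and Snx33, and the linked regions just outside lay 983, 984 and 988 bp from Gng7, Pdlim7 and Plk5. Levels on the 2 sides of the distance limit were 13.7 to 19.2 and 12.8 to 23.5 tags per kb.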

How the data were processed

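Per the submitters' processing notes, Bowtie2 2.2.8, HOMER 4.8 and the mm10 build were used. The authors called broad regions with HOMER's findPeaks, per the file headers, from 500 bp windows stitched together (Poisson p threshold 0.001, fragment length 78 bp, no more than 1 tag per bp counted), and the recorded command names no control library. Per the file headers, the deposited signal is the tag count of a region on a scale of 10000000 tags, the deposited score comes from the caller, and the clonal fold change is a deposited ratio. Scores only ranked regions within a list.

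Regions were joined at 1 bp overlap with Python 3.11.15, numpy 2.4.6 and pandas 2.3.3. Intervals came from scipy 1.17.1, and interval code was tested on simulated regions against per-base counts. Genes, promoters and microRNAs came from RefSeq tables of GRCm38.p6, the assembly behind mm10. Gene types were searched within 1 kb of a member's span. Members, lists and alternatives were chosen with earlier results of these data known. Named were members at listed genes, the 8 highest of each of 4 classes by mean tags per kb, 3 per organ by ratio, and 3 on each side of a limit. The high-signal multiple was 5 and the organ fold 2. With 1 list per organ, no test was made. Strand was known for the nearest genes of fewer than 80% of members, so sides of genes are not given.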

Additional observations from a re-analysis of the deposited data

Results flagged for a closer look

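Outside the chromosomes used for joining, the 4 lists together held 19 called regions on chromosome Y and 10 on the mitochondrial genome. These are signals in data that the comparisons above do not use, and no control library was analysed here to set a background for them.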

How the results depend on the processing

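Counts of members depended most on the rules for including weak or long regions. From 896 members, a length limit of 5000 bp left 593, keeping the top 50% of every list by score 215, a minimum of 10 tags per 10000000 left 512, and a base shared by all 4 lists, an alternative chosen after the data were seen, 573. Members at other non-coding genes went from 331 to 204, 83 and 200 under the first 3 of these, members at small RNA genes from 52 to 14 under top scores, and unannotated members from 511 to 117 under top scores, 271 under the tag minimum and 300 with a shared base. High-signal members went from 5 to 3 under top scores, 3 under the tag minimum and 2 at 10 times the list median. The 2-fold counts moved as follows. Heart (36) gave 19 at 5000 bp, 12 under top scores, 20 under the tag minimum, 0 at 3-fold and 3 relative to the list median, which was also added after the data were seen. Kidney (1) gave 0 under top scores, the tag minimum and 3-fold. Liver (3) gave 0 at 5000 bp, 9 at 20000 bp, 1 under top scores, 0 at 3-fold and 18 relative to the list median. Lung (2) gave 0 at 5000 bp, 1 under top scores, 1 under the tag minimum, 0 at 3-fold and 1 relative to the list median. A shorter length limit, a score or tag minimum, a larger multiple or fold and the shared base each keep fewer regions by construction. For the other settings the cause was not tested. Nor was it tested for high-signal members under the tag minimum, which removed none of them directly. Each of the 5 held at least 69.6 scaled tags in every list. The other 42 values stayed within 1.5 times, among them 902 members with an overlap of 50% of the shorter region. No paired analysis was possible because there was 1 list per organ. A median member rested on 32.9 to 37.6 scaled tags, which limits what can be told apart.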
